A study of Mus musculus with 32 samples.

Results

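A set of 36 mouse genes that repair DNA by homologous recombination or through the Fanconi anaemia pathway was followed in BV-2, a continuously growing cell line derived from mouse microglia, which are the brain's own macrophages. The set was taken by name: all 36 symbols were found among the 45706 genes of the deposited table. It holds 4 damage kinases of the ATM and checkpoint families, 6 factors of DNA end resection, 5 members of the BRCA1, PALB2 and BRCA2 axis, 5 strand exchange factors, 8 members of the Fanconi core complex and its partners, the pair Fancd2 and Fanci, 2 RecQ helicases, 3 structure-specific nuclease genes and 1 post-replication scaffold, Ankrd32, whose current symbol is Slf1.

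Homologous recombination repairs a DNA double-strand break, or a broken replication fork, by copying the sister chromatid, so it operates mainly while cells replicate their DNA and before they divide. Break ends are resected to single strands, BRCA1, PALB2 and BRCA2 prepare them to invade the sister chromatid, and helicases and nucleases take apart the joined molecules. The Fanconi pathway unhooks crosslinks between DNA strands: the core complex marks FANCD2 and FANCI with ubiquitin, and the repair then passes through recombination factors.

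The cells had been transfected with a scramble control or with a synthetic duplex that mimics a mature microRNA, either miR-146a, miR-29a or miR-7a. Mature microRNAs pair with messenger RNAs mostly through their seed, bases 2 to 8, which is in capitals in the RefSeq sequences here. They are shown because the members were searched for letters that pair with these seeds.

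mmu-miR-7a-5p: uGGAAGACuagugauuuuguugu

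mmu-miR-29a-3p: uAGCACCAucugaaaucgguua

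mmu-miR-146a-5p: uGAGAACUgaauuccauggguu

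In GRCm38.p6 the miR-7a sequence lies at chr7:78888295-78888317 (plus strand, Mir7-2) and at chr13:58392841-58392863 (minus strand, Mir7-1), the miR-29a sequence at chr6:31062673-31062694 (minus strand) and the miR-146a sequence at chr11:43374435-43374456 (minus strand). The 3 seeds differ, so the mimics form no common seed group. The letters that pair with the seed, GTCTTCC for miR-7a, TGGTGCT for miR-29a and AGTTCTC for miR-146a, were searched on the sense strand of the annotated 3′ untranslated region of every member. The miR-7a letters stood in 5 of 36 members (13.9%, against 1392 of 10738 genes searched), namely Brca1, Chek1, Fancc, Rad50 and Xrcc2. The miR-29a letters stood in Blm and Brca1 (5.56% against 14.5% of genes), and the miR-146a letters in Blm, Chek1 and Rad50 (8.33% against 11.4%). These regions were shorter in the members, with a median of 566 bases against 1020 bases over all genes searched. A match of letters is a description and not a site of action. Shorter matches, coding regions and other transcripts of the genes were not searched. The windows of the 3 members with miR-146a letters and of Blm and Brca1 for miR-29a are given with the match in capitals, because the mimic results turn on which members fell.

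Blm, miR-29a letters, chr7:80455086-80455114, minus strand: aacattttcttTGGTGCTactgcacatgt

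Brca1, miR-29a letters, chr11:101489705-101489733, minus strand: ctctcagtcttTGGTGCTtccacacccta

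Blm, miR-146a letters, chr7:80455240-80455258, minus strand: cAGTTCTCtgcgcatagat

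Chek1, miR-146a letters, chr9:36710207-36710235, minus strand: agttgttgaagAGTTCTCttcccattacc

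Rad50, miR-146a letters, chr11:53649720-53649748, minus strand: atgtcactaacAGTTCTCtcactcagctg

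Total RNA was sequenced from 8 groups of 4 libraries, 32 in all. Vehicle was given to the 4 groups named VEH (VEH_scramble and VEH_ followed by the mimic's name), and the 4 groups named LPS in the same way received 10 ng/ml of lipopolysaccharide (LPS, an outer-membrane molecule of bacteria to which macrophages respond) for 24 h. All groups carried a wild-type genotype and a transfected RNA, so no group was left untransfected. The study's methods describe transfection ahead of LPS and the sample labels the reverse order, and replicates are described as independent experiments on 1 cell line. Within each condition the 3 mimics shared the same 4 scramble libraries, and LPS_scramble also served as the treated arm of the LPS comparison, so these comparisons are not independent of each other.

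Library totals, after the decimal marks lost from the table were restored, ran from 1590000 to 23000000 estimated counts (rounded). Structural RNA genes took 2.52% to 17.8% of the totals in 7 groups and up to 49.3% in VEH_miR-7a. The labels call the cells glioblastoma. Summed over 10 microglial and macrophage markers, libraries held 1918 to 4574 CPM (counts scaled to a common library total), although Cx3cr1 had a median of 0.546 CPM and was at 0 in 5 libraries. Summed over 12 glioma, astrocyte and neural markers they held 1.08 to 14.6 CPM, mostly Mbp, with medians of 0 for Gfap, Olig2 and Sox2. In such bulk samples fewer cells of a type and less RNA per cell cannot be told apart.

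Levels of the members are given as CPM scaled by trimmed mean of M values (TMM) over all 32 libraries. Per kilobase of transcript, which allows genes to be compared, Blm, a helicase that dissolves joined DNA molecules, had the highest level in LPS_scramble at 24.2 ± 5.40 CPM per kb (SD, n = 4), followed by Rad50, a subunit of the complex that senses broken ends, at 15.6 ± 2.20. In VEH_scramble the order was led by Fance, a bridging subunit of the Fanconi core complex, at 11.7 ± 3.67, with the kinase Atr at 11.2 ± 2.85, the nuclease Mre11a at 11.03 ± 0.863, Blm at 9.57 ± 2.24 and the checkpoint kinase Chek2 at 8.70 ± 0.915 CPM per kb within its SD. Fancb, a core complex subunit, was last in both groups, at 1.01 ± 0.215 and 1.39 ± 0.453 CPM per kb. The highest of the 8 group means fell in LPS_miR-7a for 17 members, in LPS_miR-29a for 15 and in LPS_scramble for 2. The lowest fell in VEH_miR-146a for 14 members and in VEH_scramble for 10. The ratio of the highest to the lowest group mean ran from 1.23 for the strand exchange gene Xrcc3 to 5.68 for Aunip, a small protein that promotes end resection.

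**Figure D1:**
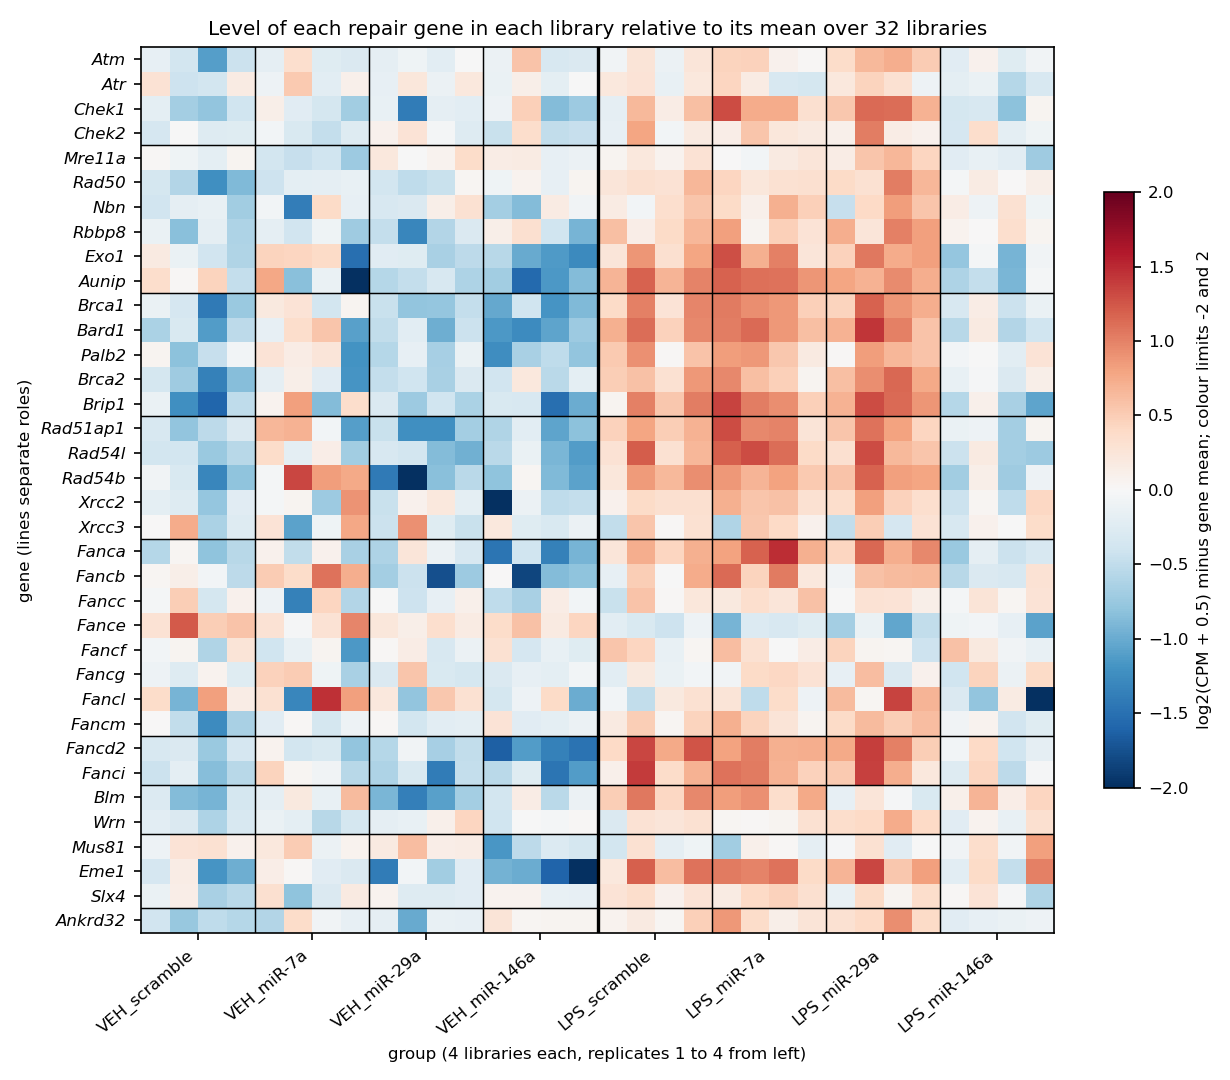
Level of each of the 36 repair genes (rows, grouped by role) in each of the 32 libraries (columns, by group), as log2(CPM + 0.5) minus the mean of that gene over all libraries. LPS_scramble, LPS_miR-7a and LPS_miR-29a are mostly above the gene means, while LPS_miR-146a and the vehicle groups are mostly near or below them.

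The first comparison asked how LPS changed these genes in scramble cells. Of 35 members tested, 19 rose and 1 fell at an adjusted p under 0.05 (limma-voom, Benjamini-Hochberg over all genes tested), beside 17.6% of the 12364 genes tested, 9.04% higher and 8.55% lower. The median log2 fold change was 0.74 over the members and -0.0044 over all genes tested. The libraries of both groups did not overlap and were higher with LPS for 21 of the 35 members tested, against 12.8% of genes tested. Rad54b could not be tested here because 1 of its VEH_scramble values could not be read with certainty.

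The BRCA axis had 4 of 5 members called, all higher. Bard1, the partner that stabilises BRCA1 (chr1:71027498-71103146, minus strand, GRCm38), stood at 9.38, 12.03, 6.58 and 10.2 CPM in VEH_scramble libraries 1 to 4 and at 24.7, 32.96, 20.7 and 29.4 CPM in LPS_scramble. Every LPS library was above every vehicle library, and Bard1 rose 2.75-fold (log2 fold change 1.46 ± 0.22 SE, adjusted p = 0.00133). Brca1 (chr11:101488764-101551955, minus strand), a scaffold that promotes resection, stood at 30.6, 26.3, 12.3 and 19.9 CPM with vehicle and 43.8, 67.5, 40.6 and 66.1 CPM with LPS. It rose 2.45-fold without overlap (log2 1.29 ± 0.27, adjusted p = 0.00814), LPS libraries 2 and 4 being the highest. Brca2 (chr5:150522630-150570329, plus strand), which acts on resected single strands, stood at 34.2, 26.6, 16.9 and 23.9 CPM with vehicle and 61.9, 65.7, 53.9 and 80.1 CPM with LPS. Brca2 rose 2.52-fold, again without overlap (log2 1.33 ± 0.21, adjusted p = 0.00152). Brip1 (chr11:86058138-86201193, minus strand), the helicase that binds BRCA1, stood at 13.4, 6.02, 4.60 and 10.2 CPM and 15.3, 30.4, 21.7 and 30.6 CPM. LPS library 1 lay just above vehicle library 1, and the rise was 2.84-fold (log2 1.504 ± 0.31, adjusted p = 0.00745). Palb2, which links BRCA1 to BRCA2, had a log2 fold change of 0.74 ± 0.26 and missed the threshold (adjusted p = 0.0739), but passed it with the replicate number as a block (adjusted p = 0.0449).

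Of the 6 resection genes 4 were called, all higher. Rad50 rose 2.15-fold (adjusted p = 0.00297), from 25.9 to 47.8 CPM in the VEH_scramble libraries to 72.3 to 96.9 CPM in LPS_scramble. Rbbp8, the cofactor CtIP that starts resection, rose 1.79-fold (adjusted p = 0.0183). Exo1 (chr1:175880581-175913489, plus strand), an exonuclease of long-range resection, stood at 19.2, 15.3, 12.7 and 10.9 CPM and 20.02, 31.4, 21.1 and 29.4 CPM. Its groups were parted only by the gap between 19.2 and 20.02 CPM, and it rose 1.77-fold (adjusted p = 0.0261). Aunip (chr4:134510999-134523927, plus strand) was low, at 3.90, 3.01, 4.17 and 1.98 CPM with vehicle and 5.01, 7.26, 5.03 and 6.35 CPM with LPS. It did not overlap and rose 1.92-fold (adjusted p = 0.0406), but with the replicate block it missed the threshold (adjusted p = 0.0765). The other subunits of the break-sensing complex were not called: Mre11a had a log2 fold change of 0.16 ± 0.13 and Nbn of 0.68 ± 0.25 (adjusted p = 0.413 and 0.0819).

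Among the strand exchange genes, Rad51ap1 (chr6:126923050-126939587, minus strand), which helps DNA strands pair, stood at 9.96, 7.02, 8.55 and 10.1 CPM with vehicle and 17.5, 22.1, 17.8 and 20.6 CPM with LPS. The groups were well apart, and it rose 2.09-fold (log2 1.06 ± 0.17, adjusted p = 0.0019). The motor protein gene Rad54l rose 2.21-fold (adjusted p = 0.00631), and Xrcc2, which also acts in strand exchange, 1.55-fold (adjusted p = 0.0422, or 0.072 with the replicate block). Xrcc3 had a log2 fold change of 0.28 ± 0.30. Rad54b (chr4:11558922-11615805, plus strand), a relative of Rad54l that overlaps Fsbp on the same strand, read 4.80, 4.01, 1.75 and 2.70 CPM with vehicle and 6.05, 9.53, 8.25 and 10.1 CPM with LPS, without overlap and untested. The 2 genes of the ID complex both rose. Fancd2 (chr6:113531682-113597017, plus strand) stood at 24.8, 25.6, 18.4 and 24.7 CPM and 41.3, 79.4, 53.01 and 75.5 CPM, with no overlap. It rose 2.55-fold (log2 1.35 ± 0.21, adjusted p = 0.0017), and Fanci rose 2.31-fold (adjusted p = 0.0137).

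The Fanconi core complex was divided. Of its 8 genes, 2 rose, 1 fell and 5 did not pass. Fanca (chr8:123268300-123318576, minus strand), a scaffold subunit that overlaps Zfp276 on the other strand, stood at 15.4, 23.8, 13.2 and 15.6 CPM with vehicle and 27.5, 38.6, 31.3 and 38.1 CPM with LPS. No library overlapped, and Fanca rose 2.03-fold (log2 1.02 ± 0.20, adjusted p = 0.00532). Fancm, the translocase that brings the complex to DNA, rose 1.80-fold (adjusted p = 0.03). Fance (chr17:28313519-28326572, plus strand) was the 1 member that fell: it stood at 17.9, 34.6, 20.6 and 21.7 CPM with vehicle and 12.5, 11.6, 10.8 and 13.5 CPM with LPS. Vehicle library 2 was the highest, yet all 4 vehicle libraries were above all 4 LPS libraries, and the log2 fold change was -0.95 ± 0.21 (1.93-fold lower, adjusted p = 0.012). Fancb, Fancc, Fancf, Fancg and Fancl, the last being the ubiquitin ligase, had log2 fold changes between -0.20 and 0.54.

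The remaining roles were mixed. Among the kinases, Chek1, the effector kinase of ATR, rose 1.84-fold (adjusted p = 0.0307). Atm (chr9:53439149-53536740, minus strand), the kinase activated by double-strand breaks, stood at 87.7, 75.7, 45.2 and 72.2 CPM with vehicle and 93.2, 117, 90.2 and 115 CPM with LPS. The groups did not overlap, but with a log2 fold change of 0.54 ± 0.20 Atm missed the threshold (adjusted p = 0.0794, or 0.0264 with the replicate block). Atr and Chek2 had log2 fold changes of 0.16 ± 0.18 and 0.41 ± 0.22. Blm (chr7:80454733-80535119, minus strand) stood at 54.1, 35.8, 34.4 and 51.6 CPM and 92.3, 137, 88.0 and 128 CPM. Its groups were far apart, and it rose 2.41-fold (log2 1.27 ± 0.19, adjusted p = 0.00143), while the other RecQ helicase, Wrn, had 0.49 ± 0.16 (adjusted p = 0.0587). Eme1, a nuclease subunit that overlaps Lrrc59 and Mrpl27 on the other strand, had the largest fold among the called members at 3.03 (log2 1.599 ± 0.33, adjusted p = 0.00777). Its catalytic partner Mus81 had -0.21 ± 0.19 and the scaffold Slx4 0.52 ± 0.19 (adjusted p = 0.0748, or 0.0432 with the block), and Ankrd32, a scaffold that recruits chromatin factors to stalled forks, rose 1.65-fold (adjusted p = 0.0127).

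**Figure D2:**
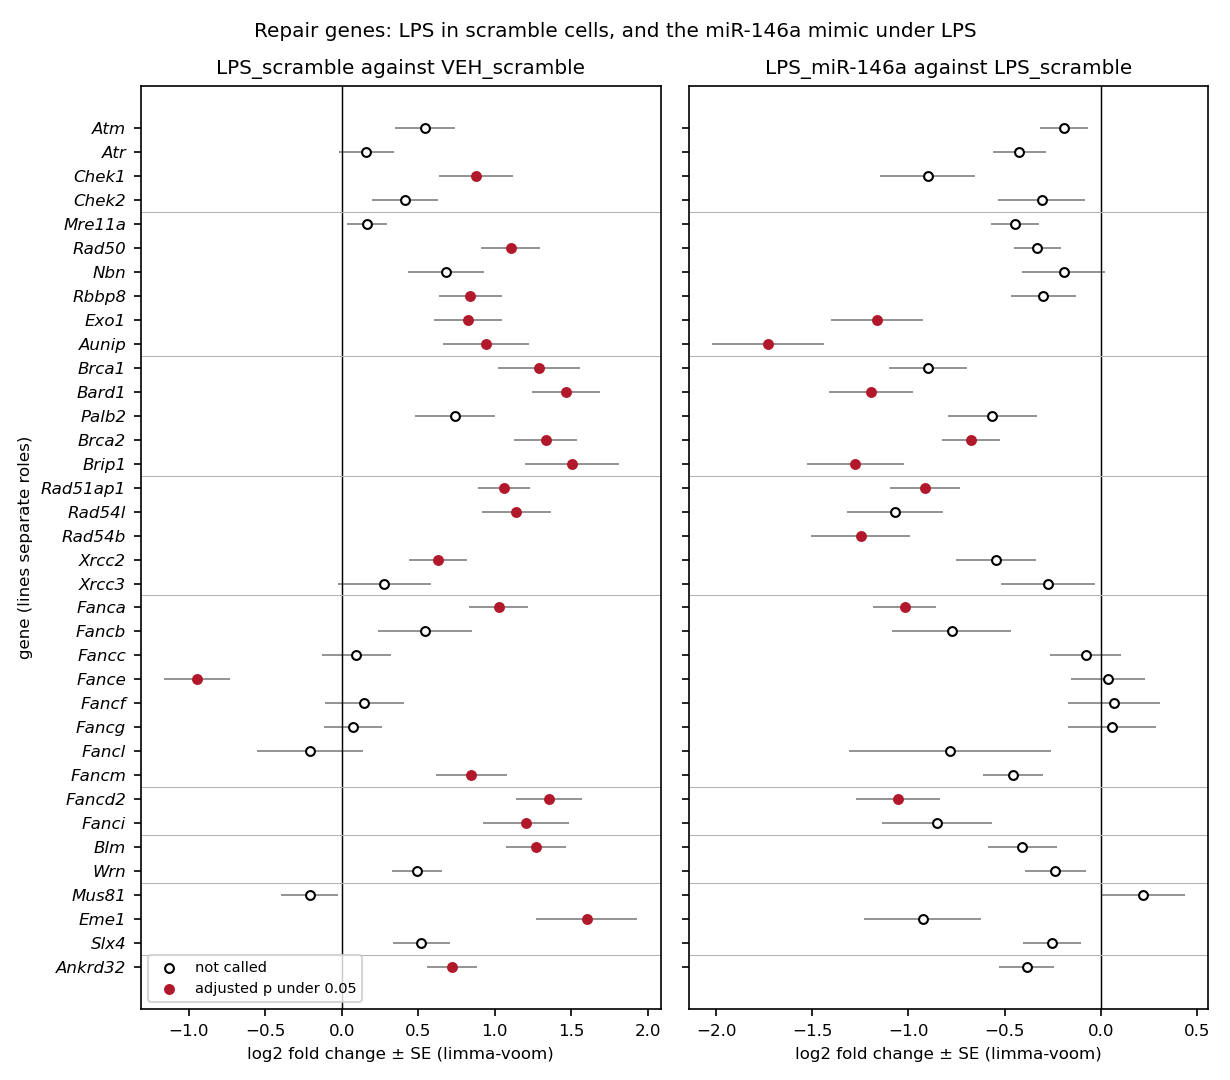
Log2 fold change (points) and its standard error (bars) of each member in LPS_scramble against VEH_scramble and in LPS_miR-146a against LPS_scramble, each from 4 against 4 libraries. In the first comparison 19 members were called higher and 1, Fance, lower, and in the second 9 were called lower and 0 higher.

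The number of calls with LPS was 20 with edgeR's quasi-likelihood test, 22 with DESeq2 and 21 with the replicate block, and it was 12 without VEH_scramble replicate 4 (median log2 fold change 0.68), where the calls over all genes went from 2175 to 1262. Structural RNA genes took 6.58% to 11.4% of VEH_scramble and 2.85% to 5.98% of LPS_scramble, and leaving them out gave 20 calls.

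Genes outside the set were compared through lists. Of 56 other genes of the same pathways that were tested, 17 rose and 0 fell with LPS (median log2 fold change 0.46). The 4 with the smallest adjusted p were Clspn, a checkpoint mediator, at 1.59 ± 0.22, Mdc1, which binds marked chromatin at breaks, at 1.28 ± 0.19, the resolvase Gen1 at 1.87 ± 0.28 and the strand exchange gene Rad51c at 1.97 ± 0.30. Of 9 end-joining genes, which rejoin breaks without a template, 1 rose (Xrcc5, log2 0.88 ± 0.18), and of 14 p53 target genes 1 rose (Cdkn1a, a cell cycle inhibitor, log2 1.01 ± 0.23). Cell cycle genes moved beside the members: 16 of 34 S-phase genes and 44 of 52 G2/M genes rose and 0 of either list fell. Their summed level ran from 1202 to 1412 CPM (S-phase) and 1960 to 2950 CPM (G2/M) in VEH_scramble, and from 1601 to 2134 CPM and 4786 to 6108 CPM in LPS_scramble, without overlap. The part of cell cycle genes, and of the share of cells in cycle, in the members' change was not tested. Microglial markers moved the other way: of 9 tested, 4 fell with LPS and 0 rose (Trem2 -1.38 ± 0.17, Tyrobp -1.12 ± 0.18, Csf1r -0.64 ± 0.15 and Spi1 -0.76 ± 0.22), and the 10 listed summed to 2964 to 4574 CPM in VEH_scramble and 2353 to 3203 CPM in LPS_scramble. The 12 glioma and neural markers summed to 3.51 to 6.66 CPM and 2.19 to 3.62 CPM. Of these only Mbp was tested, and it fell (log2 -0.92 ± 0.26, adjusted p = 0.035). The part of either list in the members' change was not tested.

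Transcript length and GC content were examined because long and GC-poor genes can shift together between libraries. Members had longer transcripts than the genes tested, with medians of 3747 and 2811 bases, and a lower GC content, 46.2% against 49.9%. The 19 genes that rose had a median GC content of 46.1% and 4598 bases, the 15 that were not called 46.4% and 2953 bases, and Fance, which fell, 61.3% and 2025 bases. Across the 35 members the log2 fold change correlated with GC content at r = -0.39 and with log2 length at r = 0.39, beside -0.27 and 0.20 across 12305 genes, as a description of genes that share the same libraries. On log2 CPM (limma-trend), 19 members were called with a median log2 fold change of 0.76, and after the trends of each library with GC and length were removed 17 were called, 16 higher and 1 lower, with a median of 0.53. Between these 2 fits Ankrd32, Chek1, Exo1 and Palb2 were lost (adjusted p = 0.156, 0.172, 0.0537 and 0.0682 after removal), Slx4 (0.0125) and Aunip (0.0446) were gained, and 15 calls were shared. Xrcc2 was called in neither, and Fance stayed lower at -0.66 ± 0.16.

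Promoters, here 250 bases before to 50 bases after the RefSeq start (GRCm38.p6), were found for 27 of 36 members. They are described because many members rose together. E2F letters (TTTCCCGC, TTTGGCGC, TTTCGCGC or TTTGCCGC on either strand) stood in 4 of these 27 members (14.8% against 2.32% of 27025 promoters). CHR letters (TTTGAA or TTCGAA) stood in 3, Atr, Bard1 and Eme1 (11.1% against 19.4%), and CCAAT in 17 (63.0% against 37.9%). A member counted if any of its listed promoters held the letters. The 27025 promoters were a single one per gene, whether or not the gene was tested, so the shares are not measured alike. The E2F windows are shown with the letters in capitals, on the strand of the gene. Bard1 and Brca2 rose with LPS, while Chek2 and Fancg were not called.

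Bard1, chr1:71103163-71103192, minus strand: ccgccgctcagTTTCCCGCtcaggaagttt

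Brca2, chr5:150522442-150522471, plus strand: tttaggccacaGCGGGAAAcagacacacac

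Chek2, chr5:110839820-110839849, plus strand: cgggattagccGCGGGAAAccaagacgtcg

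Fancg, chr4:43010335-43010364, minus strand: tttcttttcagTTTCCCGCggaaccgtctc

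The second comparison asked how the miR-146a mimic changed the members under LPS. With all 36 tested, 9 fell and 0 rose, beside 2.07% of 12662 genes in either direction and 1.38% lower. The median log2 fold change was -0.50 over the members and -0.016 over all genes, and 32 of 36 values were negative. For 12 members all LPS_miR-146a libraries were below all LPS_scramble libraries, against 5.67% of genes. The LPS comparison and this one both used the LPS_scramble libraries, so a high value in them raises one difference and lowers the other.

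Aunip had the largest difference: its LPS_miR-146a libraries read 1.75, 1.96, 1.32 and 2.85 CPM, beside 5.01 to 7.26 CPM in LPS_scramble. No library overlapped, and Aunip fell 3.32-fold (log2 -1.73 ± 0.29, adjusted p = 0.0198). Exo1, the other resection gene that fell, read 9.66, 16.4, 8.59 and 15.9 CPM, all below the 20.02 CPM of the lowest LPS_scramble library. It was 2.24-fold lower (log2 -1.16 ± 0.24, adjusted p = 0.037). Rad50, with miR-146a letters in its 3′ region, had a log2 fold change of -0.33 ± 0.12, and Mre11a of -0.44 ± 0.13, both without overlap and without passing the test (adjusted p = 0.2 and 0.0973). In vehicle cells the difference of Rad50 had the opposite sign, from 25.9 to 47.8 CPM in VEH_scramble to 54.5 to 64.3 CPM in VEH_miR-146a, also without overlap. It missed the threshold (log2 0.72 ± 0.19, adjusted p = 0.0671) but passed it with the replicate block (adjusted p = 0.0405) and with DESeq2.

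In the BRCA axis 3 of 5 genes fell and all 5 values were negative. Bard1 read 10.03, 16.95, 9.80 and 11.2 CPM in LPS_miR-146a, below the LPS_scramble range of 20.7 to 32.96 CPM. It fell 2.29-fold (log2 -1.19 ± 0.22, adjusted p = 0.0254). Brip1 read 9.84, 15.9, 9.27 and 6.88 CPM, of which 15.9 CPM overlapped the lowest LPS_scramble library at 15.3 CPM. Its log2 fold change was -1.28 ± 0.25 (adjusted p = 0.0317). Brca2 read 39.3, 43.2, 35.7 and 47.4 CPM, below 53.9 CPM in every case, with -0.67 ± 0.15 (adjusted p = 0.0491). Brca1 read 26.6, 37.0, 24.8 and 30.4 CPM, also below every LPS_scramble library. With -0.90 ± 0.20 it just missed the threshold (adjusted p = 0.0502) and passed it with the replicate block (adjusted p = 0.00479). Palb2 had -0.56 ± 0.23.

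Rad51ap1 read 11.4, 11.7, 7.68 and 13.1 CPM with the mimic, below the LPS_scramble range of 17.5 to 22.1 CPM, and fell 1.89-fold (log2 -0.92 ± 0.18, adjusted p = 0.0323). Rad54b read 2.96, 5.55, 2.91 and 4.73 CPM against 6.05 CPM or more. It did not overlap and fell 2.38-fold (log2 -1.25 ± 0.26, adjusted p = 0.037), but missed the threshold with the block (adjusted p = 0.0537). Rad54l had -1.07 ± 0.25 (adjusted p = 0.056, or 0.00508 with the block). Fanca was the 1 gene of 8 in the Fanconi core group to fall: it read 13.6, 20.5, 17.04 and 18.5 CPM, below the 27.5 CPM of the lowest LPS_scramble library, and was 2.03-fold lower (log2 -1.02 ± 0.16, adjusted p = 0.0177). Fancd2 read 30.2, 41.5, 23.7 and 27.5 CPM, and its highest library overlapped the LPS_scramble low of 41.3 CPM. It fell 2.08-fold (log2 -1.06 ± 0.22, adjusted p = 0.0378).

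Fance, the gene that LPS lowered, read 13.7, 14.01, 12.9 and 6.64 CPM in LPS_miR-146a, overlapping LPS_scramble, with a log2 fold change of 0.04 ± 0.19. Atm read 83.8, 104, 83.1 and 92.8 CPM and also overlapped, at -0.19 ± 0.13 (adjusted p = 0.474). Blm and Chek1, which carry miR-146a letters, had -0.41 ± 0.18 and -0.90 ± 0.25 (adjusted p = 0.271 and 0.0881). None of the 9 genes that fell carried those letters in the annotated 3′ region, the only part searched. With the replicate block 13 members fell: Rad54b was lost, and Atr (adjusted p = 0.0115), Blm (0.0226), Brca1, Fanci (0.0181) and Rad54l were gained.

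**Figure D3:**
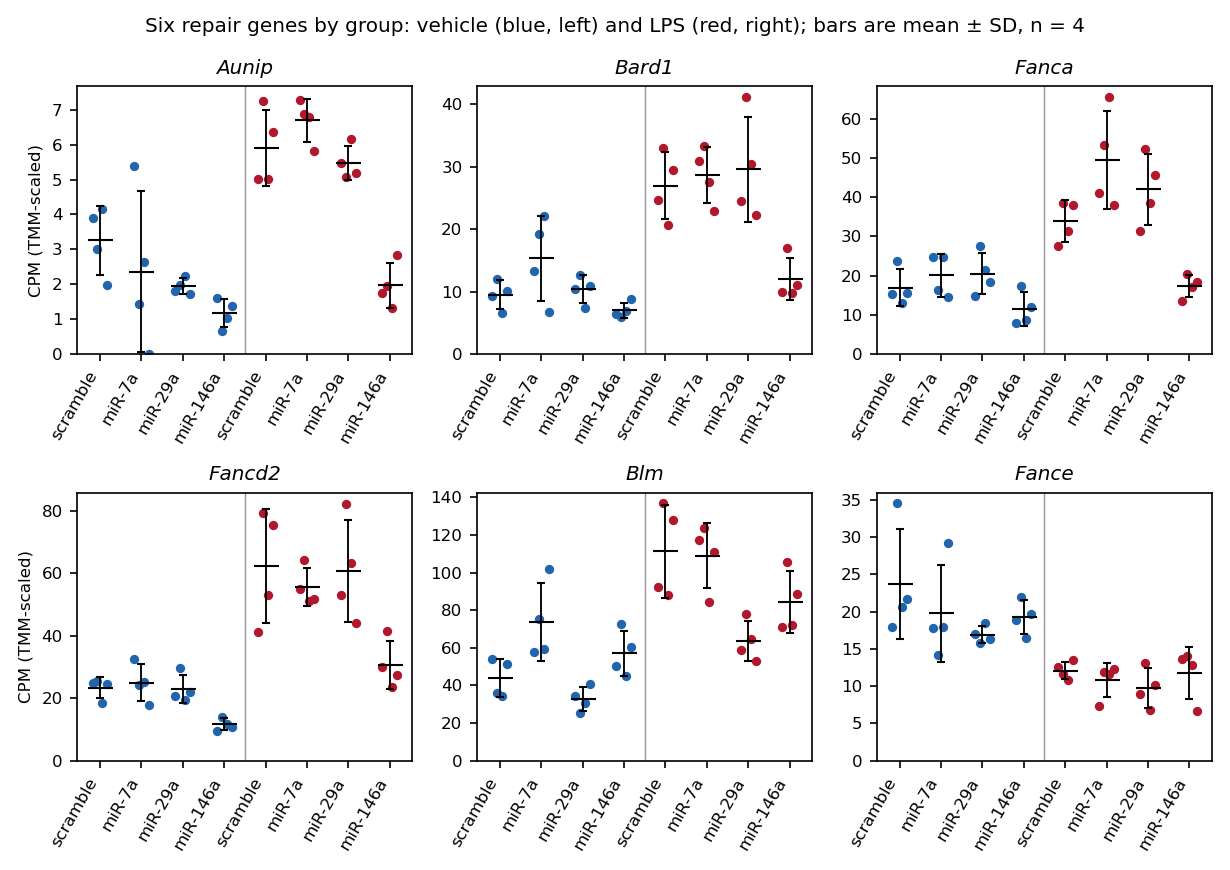
Levels (CPM) of Aunip, Bard1, Fanca, Fancd2, Blm and Fance in each library (points) by group, with the mean and SD of 4 libraries (bars). Aunip, Bard1 and Fanca had every LPS_miR-146a library below every LPS_scramble library, Blm was lowest among the LPS groups in LPS_miR-29a, and Fance was lower with LPS than with vehicle in scramble cells.

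The number of calls in LPS_miR-146a moved with single libraries, in fits without the replicate block. It was 0 without LPS_scramble replicate 4, LPS_miR-146a replicate 1 or LPS_miR-146a replicate 3. It was 2 without LPS_scramble replicate 2 and 4 without LPS_scramble replicate 1 or 3. It was 7 without LPS_miR-146a replicate 4 and 8 without LPS_miR-146a replicate 2. The median log2 fold change stayed between -0.43 and -0.55. Calls over all genes moved too, from 262 to 20, 76 and 20 in the 3 fits with 0 members called, and to between 95 and 253 in the other 5. The number of members called was 5 with edgeR's quasi-likelihood test (without Brca2, Exo1, Rad51ap1 and Rad54b), 12 with DESeq2, 3 with limma-trend, and 6 with limma-trend after GC and length trends were removed, where the median was -0.50. That removal ended the call of Aunip (log2 -1.35 ± 0.33, adjusted p = 0.0733), which limma-trend alone had kept. Exo1, Rad51ap1 and Rad54b were called by limma-trend neither with nor without it, while Brca1 (0.0467), Brca2 (0.0287), Brip1 (0.0498) and Fancd2 (0.0476) passed after it.

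Some genes of other lists fell beside the members. Of 56 other pathway genes 8 fell and 0 rose, led by the histone gene H2afx, whose product is marked at breaks (log2 -1.01 ± 0.12), the single-strand binding subunits Rpa2 (-1.19 ± 0.17) and Rpa1 (-0.77 ± 0.12) and the polymerase Polq (-1.23 ± 0.22). Of 34 S-phase genes 16 fell, with Mcm6, a subunit of the replicative helicase, at -1.27 ± 0.14, and of 52 G2/M genes 14 fell. Summed S-phase levels ran from 973 to 1248 CPM in LPS_miR-146a against 1601 to 2134 CPM in LPS_scramble, and summed G2/M levels from 2977 to 4499 CPM against 4786 to 6108 CPM. Neither sum overlapped, and their part in the members' change was not tested. Of 9 end-joining genes 0 were called by limma-voom, with 2 at an unadjusted p under 0.05, and of 14 p53 targets 1 fell (Ccnd1, a G1 cyclin, log2 -0.89 ± 0.19).

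With the miR-29a mimic under LPS, 1 of 36 members was called, beside 4.53% of 13386 genes, and the median log2 fold change was 0.14 (0.011 over all genes), with 0.0094 without LPS_miR-29a replicate 2 and 0.22 without LPS_scramble replicate 2. Blm read 58.7, 77.8, 64.6 and 52.8 CPM in LPS_miR-29a, below the 88.0 CPM of the lowest LPS_scramble library. It fell 1.74-fold (log2 -0.80 ± 0.17, adjusted p = 0.0268), and its 3′ region holds the miR-29a letters from position 156 of 266. The call was lost (0 calls) without LPS_scramble replicate 2 or 4 or without LPS_miR-29a replicate 1, 3 or 4. Calls over all genes there went from 607 to between 147 and 486. Over all fits with a library left out, the log2 fold change of Blm ran from -0.69 to -0.93. In vehicle cells Blm read 34.7, 25.2, 30.6 and 40.7 CPM with miR-29a and overlapped VEH_scramble, although each was below the VEH_scramble library of the same number. The log2 fold change there was -0.43 ± 0.20 (adjusted p = 0.486), and the interaction with LPS, -0.38 ± 0.26, was not called (adjusted p = 0.875). Brca1, the other carrier of these letters, had a log2 fold change of 0.14 ± 0.20 under LPS. Atm read 126, 154, 162 and 139 CPM, above every LPS_scramble library. It had 0.48 ± 0.13, missing the threshold (adjusted p = 0.0604) but passing it with the replicate block (adjusted p = 0.0209), which gave 2 calls. Aunip, Brca2, Fancd2 and Rad51ap1 had -0.13 ± 0.19, 0.31 ± 0.15, -0.06 ± 0.22 and 0.13 ± 0.16. Of 9 microglial and macrophage markers tested, 2 fell, the receptor Csf1r (-0.70 ± 0.13, adjusted p = 0.0171) and the adaptor Tyrobp (-0.57 ± 0.14, adjusted p = 0.049), with sums of 1918 to 2607 CPM overlapping the 2353 to 3203 CPM of LPS_scramble. In the other direction, 1 of 33 S-phase genes rose (Hells, 0.58 ± 0.15), as did 1 of 9 end-joining genes (Prkdc, 0.50 ± 0.12), 1 of 56 other pathway genes (Rif1, 0.58 ± 0.12) and 2 of 14 p53 target genes (Ccng1, 0.63 ± 0.13, and Trp53inp1, 1.07 ± 0.26, the latter not called with the replicate block, adjusted p = 0.05002). The part of these lists in the members' values was not tested.

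With miR-7a under LPS, 0 of 36 members were called by limma-voom, edgeR or DESeq2, beside 2.45% of 13095 genes, with 1, Fanca, at an unadjusted p under 0.05 in limma-voom. The median log2 fold change was 0.09, and it turned to -0.03 without LPS_scramble replicate 3 and was 0.17 without LPS_scramble replicate 2. Fanca read 41.0, 53.3, 65.4 and 38.1 CPM in LPS_miR-7a, overlapping LPS_scramble at the low end. The 6 genes chosen to represent the roles had log2 fold changes of 0.14 ± 0.18 (Aunip), 0.17 ± 0.15 (Atm), 0.14 ± 0.19 (Brca1), -0.05 ± 0.19 (Brca2), -0.17 ± 0.18 (Fancd2) and 0.23 ± 0.21 (Rad51ap1). Of 55 other pathway genes tested, 2 fell and 0 rose, among them Rad52, a strand annealing gene (-0.84 ± 0.15, adjusted p = 0.0196), and of 14 p53 target genes 1 rose (Ccnd1, 0.67 ± 0.14) and 1 fell (Btg2, -1.06 ± 0.24, not called with the replicate block, adjusted p = 0.056).

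In vehicle cells the mimics gave few calls. With miR-7a 0 of 35 members were called by limma-voom, edgeR or DESeq2, beside 0.0902% of genes, with 8 at an unadjusted p under 0.05 in limma-voom and a median log2 fold change of 0.38. Summed S-phase levels ran from 1150 to 1783 CPM in VEH_miR-7a, overlapping the 1202 to 1412 CPM of VEH_scramble. Summed G2/M levels ran from 2783 to 5112 CPM, overlapping 1960 to 2950 CPM, and their part in the members' values was not tested. Structural RNA genes took 5.69% of VEH_miR-7a replicate 1 and 48.4% to 49.3% of the other 3 libraries of that group. Without replicate 1 the genes called rose from 10 to 240, with 0 members among them and a median over the members of 0.30. Brca1 read 38.3, 40.6, 25.8 and 34.8 CPM there, mostly above but overlapping VEH_scramble (log2 0.73 ± 0.29, adjusted p = 0.351). Aunip read 5.40, 1.42, 2.64 and 0 CPM. The 0 was in VEH_miR-7a replicate 4, the shallowest library at 1590000 estimated counts, of which 49.3% came from structural RNA genes, and 3 counts there correspond to 3.37 scaled CPM. With miR-29a 0 of 35 were called by limma-voom, edgeR or DESeq2, beside 0.0427% of genes, with 2 at an unadjusted p under 0.05 and a median of 0.07, which was -0.0032 without VEH_scramble replicate 3 and 0.10 without VEH_scramble replicate 2.

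With miR-146a in vehicle cells 1 of 34 members was called, beside 1.72% of 11839 genes, and the median was -0.21, with -0.09 without VEH_miR-146a replicate 3 and -0.28 without VEH_scramble replicate 3. Among the members, 3 lay below all VEH_scramble libraries (Aunip, Fancd2 and Mus81), against 7.82% of genes tested, and 2 above them (Rad50 and Ankrd32), against 7.42%. Fancd2 read 9.69, 14.2, 11.9 and 10.9 CPM in VEH_miR-146a, below all VEH_scramble libraries. It fell 1.98-fold (log2 -0.98 ± 0.19, adjusted p = 0.0365), a difference close to the -1.06 ± 0.22 under LPS. Aunip read 1.61, 0.675, 1.05 and 1.38 CPM, also below all VEH_scramble libraries, at -1.43 ± 0.43 (adjusted p = 0.0834). Brca2 read 33.4, 50.8, 29.8 and 38.1 CPM and overlapped VEH_scramble, with a positive difference of 0.58 ± 0.24. Cell cycle genes moved here too: 2 of 34 S-phase genes fell (Mcm6 -0.88 ± 0.16 and Mcm5 -0.96 ± 0.21), 6 of 52 G2/M genes fell, led by Ncapd2 at -1.22 ± 0.21, and of 57 other pathway genes 1 fell (H2afx, -1.55 ± 0.22). Summed S-phase levels ran from 928 to 1141 CPM in VEH_miR-146a against 1202 to 1412 CPM in VEH_scramble, without overlap, while G2/M sums of 1929 to 2481 CPM overlapped 1960 to 2950 CPM, and their part in the members' change was not tested. Leaving out VEH_scramble replicate 1 gave 3 calls, 2 higher and 1 lower, and leaving out any other of the 8 libraries gave 0. Calls over all genes went from 204 to 1159 without VEH_scramble replicate 1 and to between 19 and 68 without any other.

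Whether a mimic acted differently with LPS than with vehicle was tested as an interaction. None of the members was called: 0 of 35 for miR-7a, 0 of 35 for miR-29a and 0 of 34 for miR-146a by limma-voom, beside 0.0653%, 0.0644% and 0.0402% of genes. At an unadjusted p under 0.05 there were 2, 1 and 12, edgeR called 0 in each, and DESeq2 called 0, 0 and 3 (Ankrd32, Brca2 and Rad50). The median interaction was -0.25, 0.05 and -0.40, and with a library left out that of miR-29a ran from -0.07 (without LPS_miR-29a replicate 2) to 0.13 (without LPS_scramble replicate 2) and that of miR-7a from -0.34 (without VEH_scramble replicate 1) to -0.16 (without LPS_scramble replicate 2). For miR-146a, Brca2 had the interaction of -1.25 ± 0.29 (adjusted p = 0.309), while that of Fancd2 was -0.06 ± 0.32. A difference between LPS and vehicle in the effect of miR-146a on these genes was therefore not shown, although 9 members were called in one condition and 1 in the other.

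The members were also placed on a common scale, the median over the 36 genes of log2(CPM + 0.5) relative to each gene's mean over all libraries. In vehicle cells VEH_scramble had -0.38 ± 0.21 (SD, n = 4), VEH_miR-7a had -0.08 ± 0.16, VEH_miR-29a had -0.29 ± 0.04 and VEH_miR-146a had -0.39 ± 0.14. With LPS it was 0.40 ± 0.21 in LPS_scramble, 0.53 ± 0.21 in LPS_miR-7a, 0.57 ± 0.15 in LPS_miR-29a and -0.12 ± 0.16 in LPS_miR-146a. Libraries of LPS_miR-146a ran from -0.26 to 0.08, below the LPS_scramble range of 0.19 to 0.59 and overlapping the VEH_scramble range of -0.63 to -0.14. These values restate the members' levels and were not tested.

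**Figure D4:**
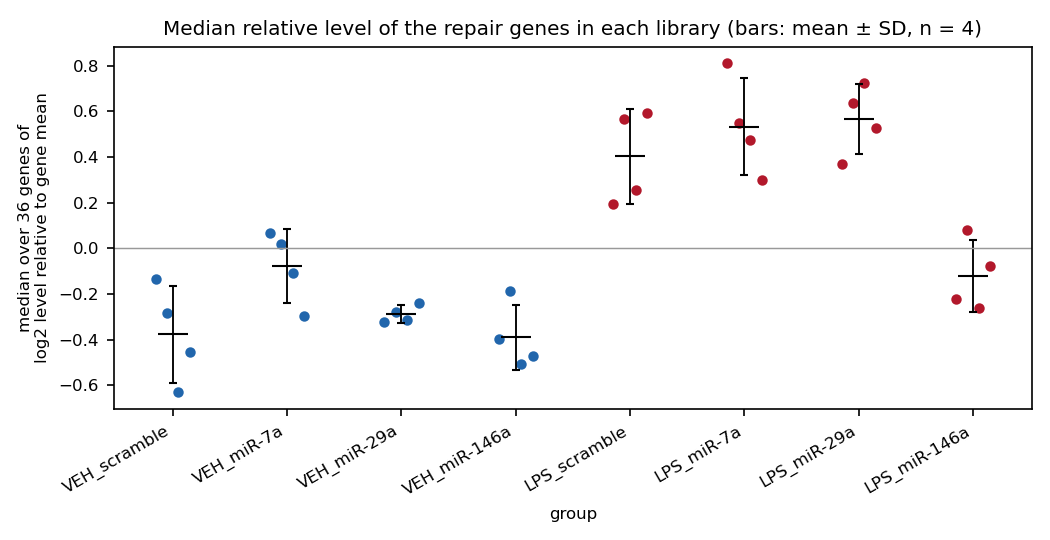
Median over the 36 repair genes of the log2 level relative to each gene's mean, for each library (points) by group, with the mean and SD of 4 libraries (bars). The 4 LPS_miR-146a libraries lie between -0.26 and 0.08, below all other LPS libraries, which lie at 0.19 or above.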

How the data were processed

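Total RNA of BV-2 cells was depleted of ribosomal RNA (RiboCop), made into CORALL libraries and sequenced. The authors counted reads per gene with an nf-core workflow on GRCm38, and the submitters' notes name limma and edgeR. The counter and annotation are not given in the sources used here. The deposited table holds estimated counts (expected counts) per gene in 32 libraries, in which fractional values had lost their decimal mark. Of the values above 20000, 0.0155% ended in 0, as few fractional parts do once the mark is lost. Each value was read with 0 to 3 decimals by the reading that best fitted the levels of the gene in its group, its condition and the whole table. The readings therefore used the group labels that the tests compare. Of the 590874 values above 0, 28.2% were given decimals. Of the members' 1151 values above 0, 274 (23.8%) were, and 2 were uncertain (posterior under 0.9): Chek1 in VEH_miR-146a and Rad54b in VEH_scramble. Genes with an uncertain value were left out of the fits that use it. Readings of structural RNA genes in VEH_miR-7a were not settled and touch the members through library totals.

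Groups came from the sample titles. For each pair of groups, 4 against 4 libraries, limma-voom 3.58.1 was run with TMM and filterByExpr (edgeR 4.0.16, R 4.3.3), and p-values were adjusted by Benjamini-Hochberg over all genes tested, with a threshold of 0.05 (7 comparisons and 3 interactions). The p-values measure the spread between these libraries of 1 cell line. Levels are TMM-scaled CPM, with offset 0.5 on the log2 scale where stated. Totals ran from 1590000 to 23000000 (rounded), and 3 counts equal up to 3.37 scaled CPM, a floor that covers counting error only. GENCODE vM21 (GRCm38) gave positions, lengths, GC content and 3′ regions, and counting by strand is not stated, so reads of genes that overlap on opposite strands cannot be told apart.

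Members, roles and lists were chosen with earlier results of these data known. All called members are named, with 6 role representatives whatever their values (Brca1, Brca2, Fancd2, Rad51ap1, Aunip and Atm). Values of each library in VEH_scramble, LPS_scramble and LPS_miR-146a are given for 11 members. These are the 8 members with the smallest adjusted p in the mimic comparison with most calls, and the representatives. For the other groups only some of them are given, and Blm and Fance were added after their values were seen. Of lists up to 4 genes are named.

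Same-numbered libraries deviated together from their group means (each of 4 pairs r above 0.1) in LPS_scramble against VEH_scramble (0.19 to 0.25) and in the LPS comparisons of miR-7a (0.24 to 0.46), miR-29a (0.23 to 0.48) and miR-146a (0.12 to 0.43), so these numbers were taken to pair libraries and a fit with the replicate block was run beside each. Alternatives were edgeR, DESeq2 1.42.0 on rounded counts, other size factors, no filter, 1 fit over all groups, GC and length removal (limma-trend, prior count 2, splines of 5 df), the values as deposited, other posteriors and each library left out. Fits with a library left out had no replicate block. Leaving out structural RNA genes was chosen after seeing the data. The restoration and tests were tested on simulated data.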

Additional observations from a re-analysis of the deposited data

Results flagged for a closer look

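Single libraries were compared with the 3 others of their group for the 11 genes chosen for library values and the median level, and 3 groups of 96 checked had a library far from the rest, where chance gives about 1 in 20. Exo1 was at 5.61 CPM in VEH_miR-7a replicate 4, the shallowest library, against 22.1 to 23.1 CPM in the others. Fancd2 was at 18.4 CPM in VEH_scramble replicate 3 against 24.7 to 25.6 CPM. Atm was at 123 CPM in VEH_miR-7a replicate 2 against 79.6 to 85.9 CPM. Exo1 and Atm were not called in the VEH_miR-7a comparison.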

How the results depend on the processing

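The value in each comparison is the number of members called. LPS_scramble against VEH_scramble gave between 17 and 22 calls under every alternative except the values as deposited (0) and ranged from 12 to 22 with a library left out. The genes called varied: of the reported 20, the replicate block shared 18, edgeR 19 and limma-trend with GC and length trends removed 16. LPS_miR-146a against LPS_scramble gave 5 with edgeR, 3 with limma-trend, 18 with GC and length trends removed and the replicate block, and 0 as deposited, and ranged from 0 to 8 with a library left out. LPS_miR-29a gave 2 with DESeq2, 2 with the replicate block, 3 with GC and length removed and the block, 0 as deposited, and 0 to 1 with a library left out. LPS_miR-7a gave 2 with GC and length removed and the block.

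VEH_miR-146a gave 5 with DESeq2, 0 with no filter, 3 in 1 fit over all groups, 0 as deposited and 0 to 3 with a library left out. Same-numbered vehicle libraries did not all correlate above 0.1 (lowest -0.06 for miR-7a, 0.0998 for miR-29a and 0.06 for miR-146a), and every library correlated best with its own number only for miR-29a. There the replicate block gave 0, 0 and 3 calls (for miR-146a Fancd2 and Exo1 lower, the latter at -0.81, and Rad50 higher at 0.74), and with GC and length removed 1 for miR-29a and 3 for miR-146a. The miR-146a interaction gave 3 with DESeq2 and 0 to 3 with a library left out, and the miR-7a interaction 1 as deposited. Apart from the values given in the report, the replicate block changed no other call of a member named there. Leaving out structural RNA genes gave 20 calls with LPS, 10 for LPS_miR-146a and the reported number elsewhere.

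For single members, a called log2 fold change reversed only with the values as deposited, in which lost decimal marks raise single values by up to 3 orders of magnitude. With LPS these were Brca2 (-1.41), Fancd2 (-6.29), Rad51ap1 (-1.65) and Chek1 (-3.16), and with miR-146a under LPS, Exo1 (1.66) and Fancd2 (4.27). Medians over the members that changed sign with a library left out are given in the report. The causes of the other changes were not tested. Depth limits low members such as Aunip, Fancl, Fancf and Rad54b, with as few as 0, 1, 2 and 2 estimated counts in a library.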
